A study of Danio rerio with 16 samples.

Results

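The ovaries of 8 adult female zebrafish were compared, out of 16 gonads in the whole series. The members are the 6 females kept in exemestane (EM) at 50, 100 or 200 µg/L, with 2 fish at each concentration, and the 2 control females kept without it. All were fish of the AB strain, 4 months of age, and exposure lasted 32 days. EM was added to the water in dimethyl sulfoxide (DMSO). The fish at 0 µg/L were taken as the solvent controls, since the labels call them only controls. Each library was made from the gonad of 1 fish, and each treatment was kept in 1 tank. Tank and treatment therefore cannot be told apart, and p-values measure the spread between fish. The fish are numbered here as in the labels.

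EM is a steroidal, irreversible inhibitor of aromatase, the enzyme that turns androgens into estrogens. In the fish ovary, theca cells supply the androgen precursors and granulosa cells convert them to estradiol. Estradiol travels to the liver and switches on the vitellogenin genes, whose yolk proteins return to the ovary and are taken up by growing oocytes. The vitellogenins are therefore liver genes, and the genes described here are mostly those of the oocyte and of the somatic cells of the follicle.

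The reads assigned to genes numbered 9275513 to 13821205 per EM-female (median 12210745.5), against 9374756 in control female 1 and 8311132 in control female 2. The 23 ovary marker genes identified, such as those of the egg envelope and the oocyte growth factors, were all above 0 in every female and held 1.56 to 1.84% of the counted reads in EM-females and 1.81 to 1.99% in control females. Of 36 testis marker genes, between 3 and 4 were at 0 in each EM-female and 6 to 8 in each control female, and the sum of the list was 534 to 798 normalized counts in EM-females and 583 to 600 in control females. Normalized counts are read counts divided by the library's size factor. Within each pair of fish on the same treatment, some genes differed at least 8-fold: 470, 500 and 395 of 15907 genes at 50, 100 and 200 µg/L, and 577 in the control pair.

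Little passed a threshold that corrects for the number of genes. Of 15907 genes tested, 2 were higher in EM-females at an adjusted p under 0.05 (0.0126%) and 0 were lower (0.0%), by edgeR's quasi-likelihood test with Benjamini-Hochberg adjustment. At an unadjusted p under 0.05 there were 1078 genes above the controls (6.78%) and 789 below them (4.96%), or 11.7% in all. All 6 EM-females stood above the higher control for 1452 genes (9.13%) and under the lower control for 964 genes (6.06%). The median log2 fold change of all tested genes was 0.01. DESeq2, run on the same counts, called 277 genes higher (1.97%) and 121 lower, 118 of these lower genes (0.839%) among those tested with edgeR. Both percents are of the 14060 edgeR-tested genes that had an adjusted p from DESeq2. Genes that passed only an unadjusted p are given below by their values in single fish, since 6 fish set against 2 allow a single gene no two-sided p below 0.0357 in an exact permutation test.

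The highest ratio among the leading genes was that of *si:cabz01069013.3*, a gene known only by its clone name. It had 374 to 825 normalized counts in EM-females (median 549.9), 0.797 in control female 1 and 0 in control female 2. The control females together held 1 read of it, so that the ratio of 1412 has a 95% counting interval of 253 to 55796, which covers counting error only. It was higher in EM-females (adjusted p = 0.00488, edgeR). Across all females, 17 genes had at most 3 reads in some fish and at least 100 normalized counts in every other. The fish with few reads were EM-females alone for 5 of the 17 genes, 1 control female alone for 5, a mix of both for 6 and the pair of control females for this gene alone.

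The other gene that passed was *cnot1*, the scaffold of the CCR4-NOT complex, which shortens the poly(A) tails of mRNAs. *cnot1* had 1216 to 1614 normalized counts in EM-females (median 1368), 508 in control female 1 and 475 in control female 2. The groups did not overlap, and its mean was 1271, 1445 and 1470.2 at 50, 100 and 200 µg/L. Its adjusted p was 0.0107 (edgeR), at a log2 fold change of 1.48 with a standard error of 0.13. Without control female 2, without EM-female 1 at 200 µg/L, in a model of all 16 libraries and with each concentration as its own group, *cnot1* was no longer called, and without control female 2 neither was *si:cabz01069013.3*.

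Of the genes of CCR4-NOT, deadenylation and small RNA processing, 42 were tested. At an unadjusted p under 0.05, 4 were above the controls, *cnot1* among them, and 6 were below, *ddx39ab* among them. These are 9.52% and 14.3% of the list, against 6.78% and 4.96% of all tested genes. This list and those below were chosen with earlier results of these data known. Their shares are thus not independent of these data, and they describe the lists without testing them. The median log2 fold change of the list was −0.01. Members above both control females in every EM-female included *dicer1*, the nuclease that cuts microRNA precursors. It had 363 to 679 normalized counts in EM-females against 161 and 291 in the controls. Others were *cnot4b*, with 1706 to 2349 against 1176 and 1659, and *dcp1a*, with 302.69 to 492.96 against 243.08 and 239.59. Among those below both controls were *xrn2*, with 2996.5 to 3827.5 against 4422 and 4354, and *dcp1b*, with 49.0 to 85.2 against 92.4 and 109.6. Also below both were *cnot8*, a catalytic deadenylase, with 773 to 1038 against 1219 and 1097, *cnot6a*, another catalytic subunit, with 57.2 to 115 against 166 and 148, and *btg2*, a partner of the deadenylases, with 2433 to 3525 against 3736 and 4032. The other deadenylase genes tested did not pass, with log2 fold changes of −0.05 in *cnot7*, 0.14 in *cnot6b* and 0.10 in *cnot6l*.

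**Figure D1:**
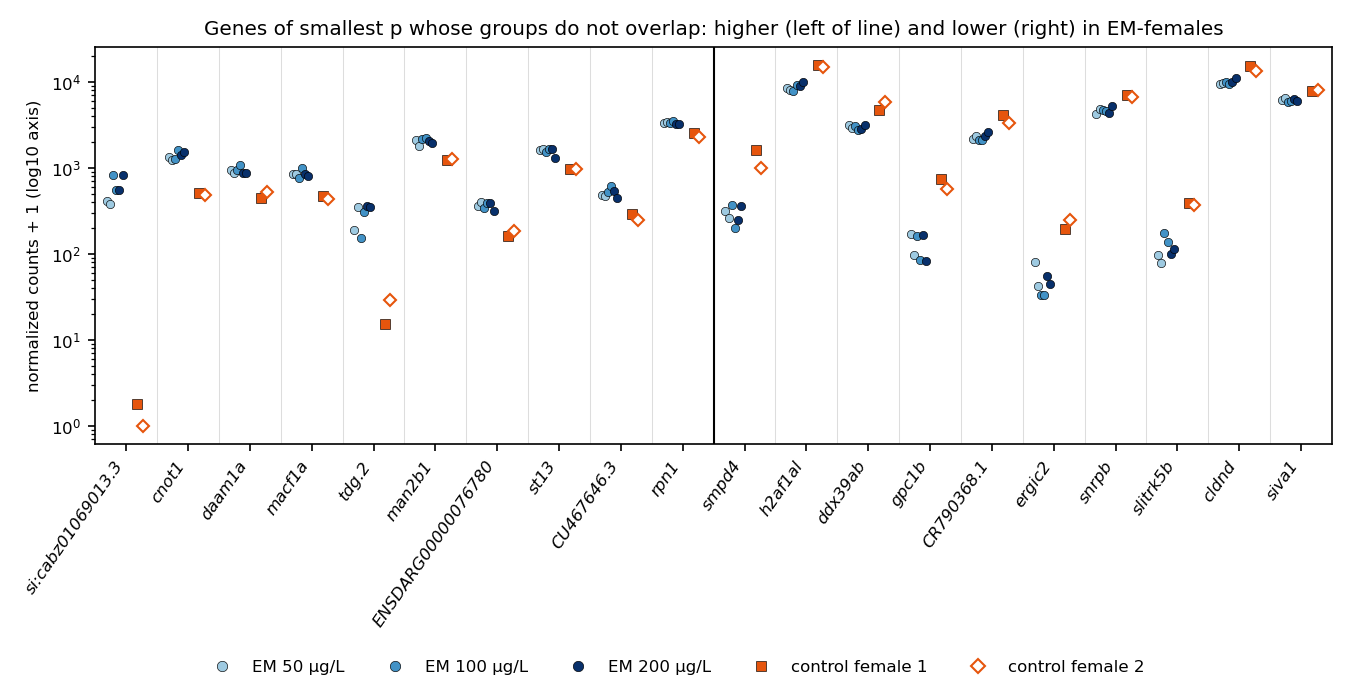
Normalized counts plus 1 on a log10 axis for the 10 genes of smallest p on each side whose groups do not overlap; circles are the 6 EM-females by concentration, and the square and diamond are control females 1 and 2. Every circle lies above both controls left of the line and below both right of it, and the gap is widest for si:cabz01069013.3.

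Next in order of p above the controls came genes of several kinds. *daam1a*, a formin that nucleates actin filaments, had 868 to 1084 normalized counts in EM-females (median 903), 439.9 in control female 1 and 516 in control female 2 (log2 fold change 0.93, standard error 0.12, adjusted p = 0.0727, edgeR). *macf1a*, which links actin to microtubules and in zebrafish oocytes is needed to disperse the Balbiani body, had 762 to 992 (median 841) against 472 and 435 (log2 fold change 0.87, adjusted p = 0.0727, edgeR). Both genes lay above the controls in every EM-female by a margin larger than the spread within either group. The DNA repair gene *tdg.2*, a thymine DNA glycosylase, had 153 to 354 normalized counts in EM-females (median 326) against 14.3 and 28.0 (log2 fold change 3.71, standard error 0.50, adjusted p = 0.0776, edgeR). *man2b1*, the lysosomal alpha-mannosidase, had 1781 to 2222 against 1221 and 1271. The mitochondrial acyl-CoA dehydrogenase gene ENSDARG00000076780 (*acadsb*, a symbol it shares with another gene) had 317 to 399 against 159 and 184. *st13*, a cochaperone of Hsp70, *rpn1*, a subunit of the oligosaccharyltransferase of the endoplasmic reticulum, and *CU467646.3* completed the 10 genes, with log2 fold changes of 0.65, 0.44 and 0.91 and adjusted p of 0.163, 0.168 and 0.168 (edgeR).

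Below the controls the gene of smallest p was *smpd4*, a neutral sphingomyelinase that releases ceramide from membrane lipid. It had 199 to 366 normalized counts in EM-females (median 289), 1611 in control female 1 and 1002 in control female 2. The groups did not overlap, although the controls differed from each other more than the EM-females did in absolute level. Its adjusted p was 0.0506 (edgeR), at a log2 fold change of −2.19 with a standard error of 0.24, −2.48 against control female 1 alone and −1.82 against control female 2 alone. The means at 50, 100 and 200 µg/L were 289, 282 and 303. The glypican gene *gpc1b*, a cell surface heparan sulfate proteoglycan, had 81.8 to 168 in EM-females (median 128) against 732 and 558 (log2 fold change −2.39, standard error 0.31, adjusted p = 0.0727, edgeR).

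Several of the other leading genes below the controls were abundant transcripts of the egg or of RNA handling. *h2af1al*, a histone H2A family member, had 7781 to 9996 normalized counts in EM-females (median 8754) against 15636 and 14831, and *cldnd*, a claudin of cell junctions, had 9392 to 11140.0 against 15187 and 13379. *ddx39ab*, an RNA helicase of splicing and mRNA export, had 2715 to 3172 against 4699.7 and 5840.3, and *snrpb*, a core protein of spliceosomal ribonucleoproteins, had 4159.8 to 5190.5 against 7100.2 and 6604. For these 4 genes the highest EM-female was below the lower control. The log2 fold changes were −0.82, −0.55, −0.86 and −0.60, with adjusted p of 0.0637, 0.168, 0.0637 and 0.144 (edgeR). *ergic2*, a protein that cycles between endoplasmic reticulum and Golgi, had 31.7 to 79.3 against 192 and 246, and *slitrk5b*, a membrane protein known from neurons, 77.4 to 173 against 389 and 368. *siva1*, a gene that promotes apoptosis, and *CR790368.1* had log2 fold changes of −0.41 and −0.74.

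Over these 20 leading genes the means at the 3 concentrations lay close together. The highest concentration mean was 1.04 to 1.90 times the lowest (median 1.12), and under 1.5 times for 16 genes. Choosing genes by a small p and groups that do not overlap favours those whose EM-females vary little. The closeness of these means was thus partly set by the choice of genes, and dependence on concentration was not tested. The part of transcript length or RNA integrity in the values of these 20 genes was not tested either.

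Larger ratios belonged to genes of low level whose EM-females spread widely. *irs2b*, an adaptor of the insulin receptor, had 7.79 to 48.5 normalized counts in EM-females (median 25.8) against 0 and 1.70, with 2 reads in the controls together (ratio 31.8, 95% counting interval 8.72 to 264, adjusted p = 0.198, edgeR). *igfbp1a*, a binding protein of insulin-like growth factors, had 6.65 to 180.1 (median 88.4) against 3.98 and 1.70. Its EM-females were divided into 4 fish at 82.1 or more and 2 fish at 12.0 and 6.65, which still lay above both controls. *si:dkey-32n7.4* had 1.24 to 94.1 against 0.797 and 0.850, with 1 read in each control, and *CR753876.1* had 24.9 to 206 against 3.19 and 5.95. Apart from the vitellogenins, one of the larger negative fold changes was that of *ms4a17a.9*, of a family of membrane proteins, with 0 to 2.64 in 5 EM-females and 44.1 in EM-female 2 at 100 µg/L, against 311 and 60.3 (log2 fold change −4.57). Also far below the controls were *sco1*, a copper chaperone of cytochrome c oxidase, with 2.37 to 30.1 (median 7.40) against 123 and 103, and *cyp2aa9*, a cytochrome P450, with 3.11 to 23.7 (median 8.79) against 70.9 and 56.9. *mmp17b*, a matrix metalloproteinase, had 2.49 to 22.8 against 76.5 and 47.6. For *isg20*, an interferon-stimulated exonuclease, EM-female 1 at 50 µg/L had 70.3, next to 70.9 in control female 1, while the other EM-females had 1.58 to 3.59 and control female 2 had 551. None of these genes had an adjusted p under 0.05 with edgeR, and the lowest was 0.185, for *sco1*.

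The enzymes of steroid synthesis, the pathway on which EM acts, held 26 tested genes. At an unadjusted p under 0.05, 4 were above the controls (15.4%, against 6.78% of all tested genes) and 0 below, and the median log2 fold change was 0.22 with 20 of 26 genes positive. *hsd17b1*, which reduces estrone to estradiol, had 12.6 to 26.6 normalized counts in EM-females (median 18.7), 1.59 in control female 1 and 2.55 in control female 2. The lowest EM-female was thus well above both controls, which held 5 reads together (ratio 9.37, 95% counting interval 3.94 to 29.2), and the adjusted p was 0.168 (edgeR). With 2 and 3 reads in the controls, *hsd17b1* entered the tested genes only through EM-females. *hsd11b2*, which inactivates cortisol and in fish also serves the synthesis of 11-ketotestosterone, had 19.2 to 74.6 (median 44.1) against 11.2 and 11.0. *pora*, the reductase that feeds electrons to microsomal P450 enzymes including aromatase, had 620.2 to 784 against 422 and 523, and *hsd17b7* had 15.0 to 36.7 against 14.3 and 11.0.

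In *cyp19a1a*, *cyp17a1* and the *cyp11a1* gene described here, EM-females overlapped the controls. The aromatase gene *cyp19a1a* itself had 60.8, 4.95, 1.2, 3.73, 111 and 10.6 normalized counts in single EM-females, against 3.98 and 3.40 in the controls. The first fish at 50 and at 200 µg/L stood far above the rest, and the groups overlapped. *cyp17a1*, which makes androgens from progestogens, had 592 to 1039 in EM-females against 822 and 719, a log2 fold change of −0.03. The side-chain cleavage gene ENSDARG00000002347 (*cyp11a1*), the first step from cholesterol, had 355 to 1928 (median 463) against 3229 and 1672, with 4 EM-females at 483 or less and 2 at 1859 and 1928. Its log2 fold change of −1.44 was within the spread between fish (adjusted p = 0.486, edgeR). This gene shares its symbol with another, so it was not among the 26 tested genes of the list. It was looked at after the data were seen.

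Of 22 tested genes of cholesterol synthesis and uptake, 3 were above the controls and 5 below them at an unadjusted p under 0.05 (13.6% and 22.7%, against 6.78% and 4.96% of all tested genes), with a median log2 fold change of 0.04. Below both controls in every EM-female were the synthesis enzyme *mvk*, with 551 to 633 normalized counts against 719.7 and 738, and the lipoprotein receptor *scarb1*, with 6951 to 7455 against 8546 and 7614. *lipeb*, a hormone-sensitive lipase, lay above both, with 84.5 to 153 against 62.2 and 68.0. For *insig1*, a brake on cholesterol synthesis, control female 1 stood apart at 62.2, while control female 2 at 22.1 lay within the 3.70 to 24.5 of EM-females.

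Among sex steroid and gonadotropin receptors and their partners, 13 genes were tested. At an unadjusted p under 0.05, 4 were above the controls (30.8%, against 6.78% of all tested genes) and 0 below (0.0%, against 4.96%). The median log2 fold change was 0.42. *nrip1a*, a nuclear receptor corepressor that mice need for ovulation, had 256 to 342 normalized counts in EM-females against 167 and 205, and *ncoa1*, a steroid receptor coactivator, had 19.7 to 27.6 against 9.56 and 9.35. The membrane progestin receptor *paqr5a* also lay above both controls in every EM-female (66.5 to 106 against 53.4 and 59.5), while *pgrmc1* overlapped them (415 to 709 against 394 and 417). Of the listed estrogen receptor genes, only *esr2a* was tested. Neither it nor *lhcgr*, the receptor for luteinizing hormone, gave such a gap. *esr2a* had 80.9 to 222 against 143 and 144, and *lhcgr* had 1.2 to 7.43 against 1.59 and 4.25.

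**Figure D2:**
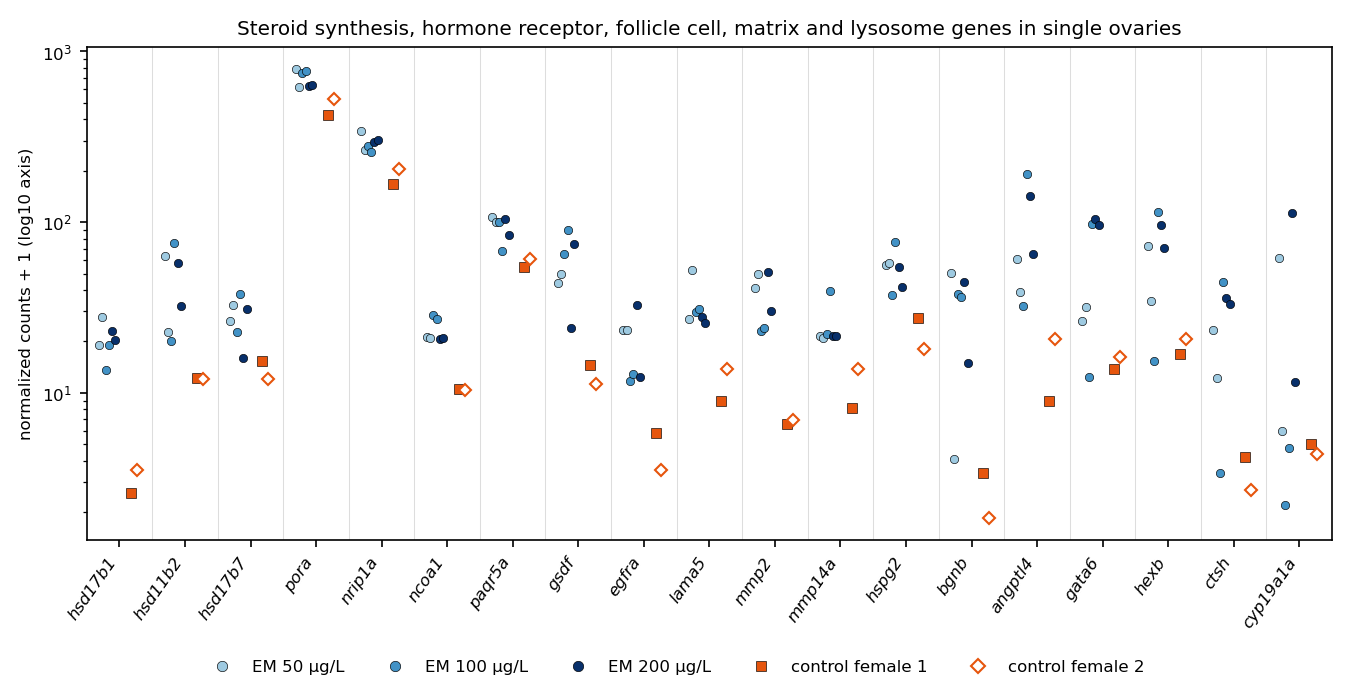
Normalized counts plus 1 on a log10 axis for genes of steroid synthesis, hormone response, follicle cells, matrix and lysosome; circles are the 6 EM-females by concentration, and the square and diamond are control females 1 and 2. hsd17b1, gsdf and mmp2 are separated from both controls, while gata6, hexb, ctsh and cyp19a1a reach into or below them in 1 or more EM-females.

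Somatic cell factors of the follicle numbered 24 tested genes, with a median log2 fold change of −0.02. At an unadjusted p under 0.05, 4 were above (16.7%) and 2 below (8.33%) the controls, against 6.78% and 4.96% of all tested genes. *gsdf*, a growth factor of the TGF-beta family made by somatic cells around germ cells, had 22.9 to 89.5 normalized counts in EM-females (median 56.5) against 13.5 and 10.2 (log2 fold change 2.22, standard error 0.57, adjusted p = 0.234, edgeR). *egfra*, the receptor through which oocyte and follicle cells exchange EGF signals, had 10.8 to 31.6 against 4.78 and 2.55, and *lama5*, a laminin chain of basement membranes, had 24.6 to 51.4 against 7.97 and 12.7. *gata6*, a transcription factor of steroid-producing cells, overlapped the controls, with 97.0, 103 and 95.8 in EM-female 2 at 100 µg/L and both at 200 µg/L, 11.4 to 30.9 in the other EM-females, and 12.8 and 15.3 in the controls. Below both controls were the BMP receptor *bmpr1ba* (686 to 893 against 922 and 1130.0) and the activin receptor *acvr2ba* (60.0 to 74.0 against 104 and 95.2). ENSDARG00000068417, which the reference table names *foxl2* after a transcription factor of granulosa cells, was looked at after the data were seen. It had 5.99 to 29.7 in EM-females against 6.38 and 0.850, so that its lowest EM-female lay between the controls.

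Oocyte and germ cell genes divided evenly. Of 44 tested, 8 were above and 8 below the controls at an unadjusted p under 0.05 (18.2% each, against 6.78% and 4.96% of all tested genes), with a median log2 fold change of 0.04. Some genes of the germ plasm and the piRNA pathway, which silences transposons, lay above both controls in every EM-female and others did not. *ddx4* (vasa) had 2046 to 2704 normalized counts in EM-females (median 2255) against 1478 and 1586 (log2 fold change 0.56, standard error 0.12, adjusted p = 0.182, edgeR), *piwil1* 727 to 997 against 610.5 and 561, and *tdrd6* 2187 to 3046 against 1990.0 and 1958. *piwil2*, *tdrd5* and *tdrd7a* overlapped the controls, with log2 fold changes of −0.02, −0.03 and −0.07, as did *dazl*, *dnd1* and *nanos3*, with −0.02, 0.22 and 0.10. *tdrd1*, *tdrd9* and *tdrd12* had log2 fold changes of 0.41, 0.46 and 0.31 and did not pass. *cpeb1b*, a regulator of maternal mRNA translation, had 7091 to 8782 against 6354 and 6130.1, and *gdf9*, an oocyte growth factor, had 576 to 740.3 against 574 and 497.

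On the other side stood the cyclins of oocyte maturation. *ccnb1* had 6406 to 7656 normalized counts in EM-females (median 6892) against 10110.0 and 8853, and *ccnb2* had 6420.2 to 7338 against 8288 and 8652, while their kinase *cdk1* lay above the controls (289.9 to 411 against 245 and 238). The linker histone of the egg, *h1m*, had 12380.0 to 17090.0 against 21289 and 17601, and *grip2a*, a localized mRNA of the oocyte, 464 to 598 against 771 and 729. *sycp3*, of the meiotic synaptonemal complex, was low in all and had 0 to 21.6 against 24.7 and 73.1. Other defining oocyte genes did not separate the groups: *bmp15* had 1920.1 to 2282 against 2139 and 2195, and *zar1* had 6068 to 8673 against 8598 and 7292. *buc*, which builds the Balbiani body, had 11756 to 14644 against 11143 and 11304, above both controls in every EM-female but by only 0.19 on the log2 scale (adjusted p = 0.477, edgeR).

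Of 53 tested genes of DNA replication and the cell cycle, 8 were above and 4 below the controls at an unadjusted p under 0.05 (15.1% and 7.55%, against 6.78% and 4.96% of all tested genes), with a median log2 fold change of 0.06. Apart from *mcm3*, those that passed had log2 fold changes between −0.33 and 0.46. *mcm3*, a subunit of the replicative helicase, had 4.23 to 49.9 normalized counts in EM-females (median 18.4) against 5.58 and 1.70, and its lowest EM-female lay between the controls (log2 fold change 2.61, standard error 1.03, adjusted p = 0.378, edgeR). *pola1*, the catalytic subunit of the polymerase that starts DNA strands, had 2796 to 3360.1 normalized counts in EM-females against 2253 and 2232 (log2 fold change 0.46, standard error 0.09, adjusted p = 0.173, edgeR). The helicase subunits *mcm4* and *mcm5* lay above both controls, with log2 fold changes of 0.24 and 0.31, and *mad2l1*, *cdc45* and *aurkb* lay below both, at −0.31, −0.32 and −0.33. *pcna* and *top2a*, markers of dividing cells, had log2 fold changes of −0.02 and −0.01. *nasp* and *orc1* were each at 2 separate levels among fish of both groups. *nasp* had 340.2, 384 and 368 in 3 EM-females and 9395 to 18821 in the other 3, against 8583 in control female 1 and 333 in control female 2, and *orc1* was high and low in the same fish.

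The genes of the extracellular matrix and its remodelling leaned to one side. Of 41 tested, 33 had a positive log2 fold change and the median was 0.57, against 8109 of 15907 and 0.01 for all tested genes. It stayed at 0.57 when the 4 genes with at most 3 reads in each control were put at their lower bound. Such genes entered the tested set only through EM-females, so that a negative value was hardly open to them. They are part of the 41, and how far this choice of tested genes adds to the lean was not tested. At an unadjusted p under 0.05, 6 were above the controls (14.6%) and 2 below (4.88%), against 6.78% and 4.96% of all tested genes. *mmp2*, the gelatinase that degrades basement membrane collagen, had 22.2 to 49.8 normalized counts in EM-females (median 34.7) against 5.58 and 5.95 (log2 fold change 2.58, standard error 0.54, adjusted p = 0.181, edgeR). *mmp14a*, which activates it, had 19.8 to 38.5 against 7.17 and 12.7, and *timp2a*, which takes part in that activation in mammals, had 3.59 to 18.0 against 2.39 and 2.55. *hspg2*, the basement membrane proteoglycan perlecan, had 36.5 to 75.2 against 26.3 and 17.0. *bgnb*, a biglycan, had 3.1 in EM-female 2 at 50 µg/L and 14.0 to 49.2 in the other EM-females, against 2.39 and 0.850. Fibronectin, *fn1a*, lay below both controls, as *gpc1b* did, with 53.5 to 122 against 143 and 138. Bulk RNA does not tell fewer cells of a type from less RNA per cell, which bears on all these genes of follicle and stromal cells.

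Blood and vessel genes were set beside the matrix genes, as other somatic cells of the ovary. The 14 vascular genes tested had a median log2 fold change of 0.40. At an unadjusted p under 0.05, 0 were below the controls and 2 above (14.3%, against 6.78% of all tested genes). These were *angptl4*, a secreted lipase inhibitor, with 31.1 to 191 normalized counts in EM-females against 7.97 and 19.5, and *erg*, an endothelial transcription factor, with 51.0 to 77.9 against 39.1 and 34.8. The endothelial markers *cdh5* and *kdrl* overlapped the controls, with 7.79 to 48.5 against 11.2 and 16.1 and 59 to 203 against 132 and 84.1. The 26 blood marker genes identified summed to 74.0 to 148 in EM-females and 85.3 to 93.5 in control females, and 0 of the 6 tested passed in either direction. The median log2 fold change of these 6 was 0.70, with 5 positive. Of the 6, 2 (33.3%, against 9.13% of all tested genes) lay above both controls in every EM-female. The pan-leukocyte gene *ptprc* had 3.95 to 6.81 in EM-females against 1.59 and 2.55, at 2 and 3 reads, and it entered the tested genes only through EM-females. The 16 muscle and fat marker genes identified summed to 94.0 to 700.0 normalized counts in EM-females, above both controls in 4 of them, against 80.5 and 199.7 in control females, and 0 of the 6 tested passed in either direction. The part of a changed cell mix in the matrix genes was not tested.

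Lysosomal and proteolytic genes gave 7 above and 3 below of 46 tested at an unadjusted p under 0.05 (15.2% and 6.52%, against 6.78% and 4.96% of all tested genes), with a median log2 fold change of 0.14. Besides *man2b1*, the peptidase *tpp1* had 1704 to 2297 normalized counts in EM-females against 1316 and 1359, the galactosidase *glb1* had 129.6 to 202 against 86.1 and 98.6, and the sulfatase *gns* had 158 to 236 against 140.3 and 119.8. All 3 genes lay above both controls in every EM-female. *hexb* (14.4 to 113 against 15.9 and 19.5) and the cathepsin *ctsh* (2.40 to 43.5 against 3.19 and 1.70) overlapped the controls through EM-female 1 at 100 µg/L. The cathepsin L gene *ctsla*, abundant in oocytes, lay below both, with 7906 to 8537 against 9451 and 8950.0.

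Of 32 genes of cytoskeleton linkers and formins, 6 were above (18.8%) and 1 below (3.12%) the controls at an unadjusted p under 0.05. These shares stand against 6.78% and 4.96% of all tested genes, and the median log2 fold change was 0.26. With *daam1a* and *macf1a*, the adhesion proteins *tln1* (656 to 951 normalized counts in EM-females against 492 and 551) and *vcla* (180.1 to 314 against 131 and 144) lay above both controls, while the actin crosslinker *flna* lay below both (140.2 to 532 against 640.0 and 771). Genes of cell death and follicle atresia gave 2 above and 2 below of 40 (5.0% each, near the 6.78% and 4.96% of all tested genes, with a median log2 fold change of 0.07). *dedd1*, a death effector domain gene, had 726 to 810.0 normalized counts in EM-females against 490.2 in control female 2 (log2 fold change 0.51, standard error 0.10, adjusted p = 0.173, edgeR), and every EM-female lay above control female 1 too. *pmaip1*, which promotes apoptosis, overlapped them, with 345 to 789 against 351 and 216. *mcl1a*, which holds apoptosis back, had 6197 to 7275 against 8909 and 8905 (log2 fold change −0.44, standard error 0.08, adjusted p = 0.168, edgeR), and *baxb*, which drives it, had 169 to 277 against 339.5 and 363. The caspase genes *casp3a* and *casp8* had log2 fold changes of −0.04 and −0.14. Hedgehog and GnRH signalling gave 2 above (10.5%, against 6.78% of all tested genes) and 0 below of 19 (*mapk3* and *sufu*). Most of these 19 genes leaned the other way, with a median log2 fold change of −0.18, 5 positive and 14 negative. The cytochrome P450s and drug response genes gave 1 above (4.0%, against 6.78%) and 0 below of 25. This was *cyp2ad3*, whose difference rested on control female 1.

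**Figure D3:**
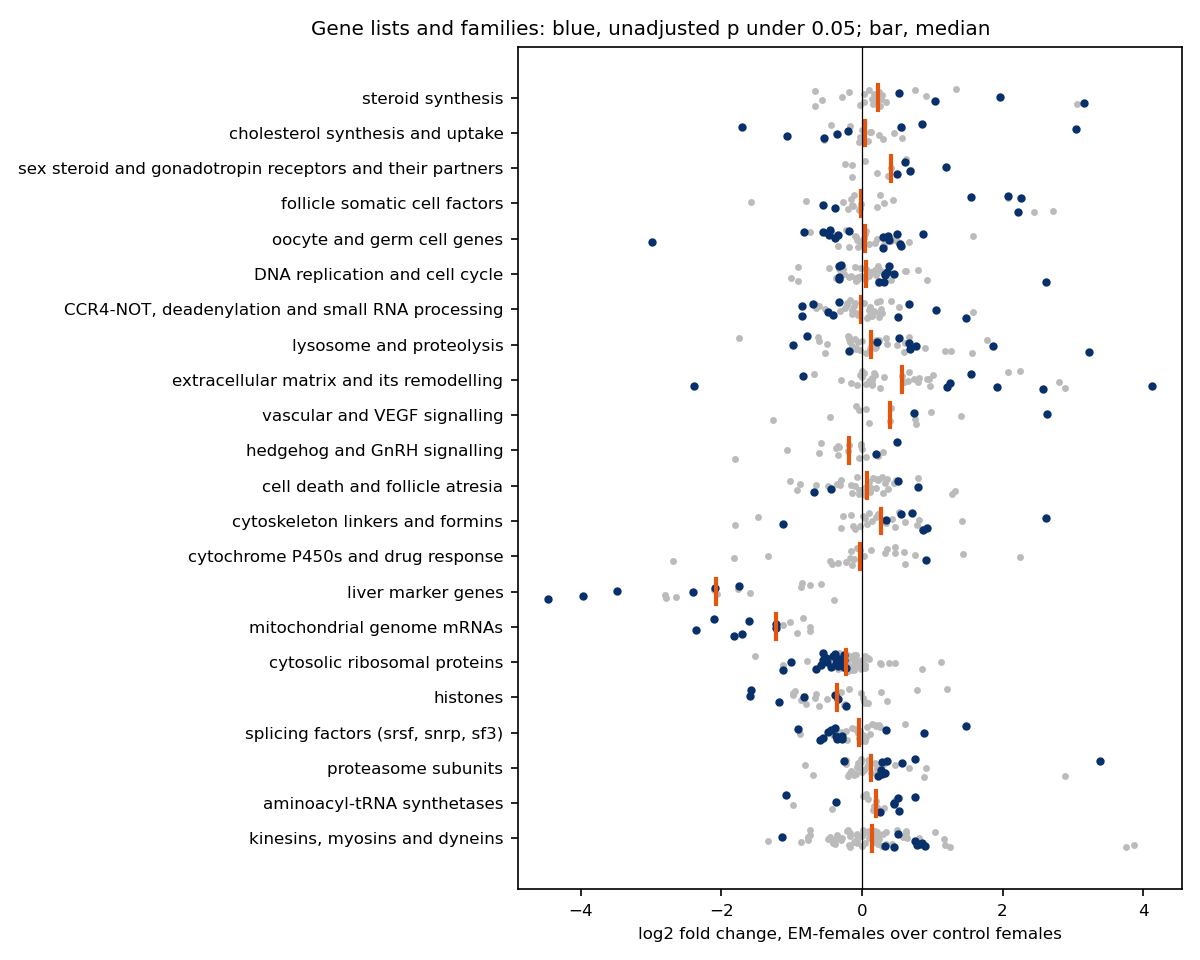
Log2 ratio of EM-females to control females for each tested member of the gene lists and families, with members at an unadjusted p under 0.05 in blue and the median of each list as an orange bar. The matrix genes have a median of 0.57, the liver marker genes of −2.08 and the mRNAs of the mitochondrial genome of −1.22.

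With 2 control females, 1 fish can set the group mean. A difference was said to rest on 1 control female when it had an unadjusted p under 0.05 but the log2 fold change against 1 of the controls alone was of the opposite sign or under 0.5 of the pooled value. This held for 34 of the 1078 genes above the controls (3.15%), 16 resting on control female 1 and 18 on control female 2, and for 144 of the 789 genes below them (18.3%), 72 on each. The sign turned against the other control for 34 of the lower genes and 0 of the higher. A fitted mean is pulled up by 1 high control more than it is pulled down by 1 low one, so that higher genes meet the rule less easily. How much of the gap between 3.15% and 18.3% comes from this was not tested. The lower genes that rested on 1 control had a median log2 fold change of −1.43, and the other lower genes one of −0.59. For the higher genes it went the other way, with 0.48 in those that rested on 1 control and 0.60 in the others. These comparisons were not tested. Among DESeq2's calls, 0 of 277 higher and 16 of 118 lower genes met the same condition on the fold change.

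**Figure D4:**
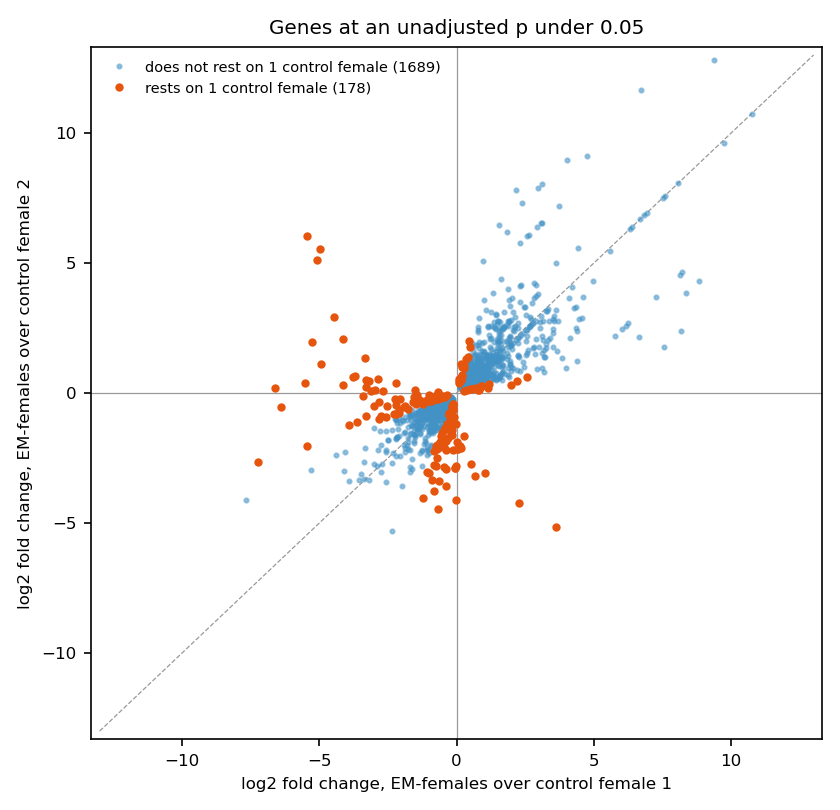
Log2 ratio of the 6 EM-females to control female 1 alone (x axis) and over control female 2 alone (y axis) for the 1867 genes at an unadjusted p under 0.05; orange points are the 178 genes whose difference rests on 1 control female. Points off the dashed diagonal near an axis differ from 1 control and hardly from the other.

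Control female 1 stood apart in liver genes. The 29 liver marker genes identified summed to 155 to 865 normalized counts in EM-females, 2712 in control female 1 and 189 in control female 2, and between 3 and 9 of them were at 0 in each EM-female, 1 in control female 1 and 10 in control female 2. Of 18 tested, 0 were above the controls and 6 below at an unadjusted p under 0.05 (33.3%, against 4.96% of all tested genes), and 5 of the 6 rested on control female 1. The median log2 fold change of the list was −2.08, −2.89 against control female 1 alone and 1.61 against control female 2 alone. *apoa1a*, an apolipoprotein of high-density lipoprotein, had 1.2 to 14.3 in EM-females, 234 in control female 1 and 0 in control female 2. *fetub*, a plasma protein that also blocks egg envelope proteases, had 0.529 to 30.8 against 159 and 0.850, and *fga*, a fibrinogen chain, had 7.93 to 75.8 against 265 and 18.7. EM-female 1 at 200 µg/L was the highest of the EM-females in *fetub* and *fga*.

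The same fish carried other transcripts known mainly from outside the ovary, and the 19 pancreas and gut marker genes summed to 94.1 to 267 normalized counts in EM-females, 388 in control female 1 and 119.8 in control female 2. The vitellogenin gene *vtg1* had 0 to 68.9 normalized counts in EM-females (median 15.1), 2243 in control female 1 and 19.5 in control female 2. Its log2 fold change was −5.61 against both controls, −6.60 against control female 1 alone and 0.21 against control female 2 alone. The chitinases *chia.3* and *chia.1*, known from the gut, had 0.619 to 16.2 and 0 to 13.7 in EM-females, 139 and 96.4 in control female 1, and 0.850 and 0 in control female 2. *rsph4a*, of the radial spokes of motile cilia, had 1.33 to 9.48 in EM-females against 78.1 and 3.40. In each of these genes control female 2 lay within the range of the EM-females. The part of liver or gut tissue dissected with this ovary, or of transcripts made in it, was not tested.

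Control female 2 stood apart in genes of another kind. *rad52*, of homologous recombination repair, had 11.6 to 29.7 normalized counts in EM-females (median 20.4), 1.59 in control female 1 and 726 in control female 2, so that the EM-females lay between the controls. *sgf29*, a subunit of the SAGA chromatin complex, had 8.39 to 22.9 against 22.3 and 305, and its log2 fold change was −3.56 with an adjusted p of 0.173 (edgeR). Against control female 1 alone it was −0.67.

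The mRNAs of the mitochondrial genome, a family chosen after the data were seen, were all below the controls in log2 fold change. Of 13 tested, 7 had an unadjusted p under 0.05 (53.8%, against 4.96% of all tested genes below the controls). Of these 7, 6 rested on control female 2, and the median log2 fold change of the 13 mRNAs was −1.22. They summed to 35984 to 96625 normalized counts in EM-females, 82389 in control female 1 and 158742 in control female 2. Control female 1 thus lay inside the range of the EM-females. *mt-nd1*, a subunit of complex I and the exception that did not rest on 1 control, had 1131 to 3347 (median 1945) against 5061 and 9633, and *mt-co1*, of cytochrome c oxidase, had 11039 to 30948 against 25168 and 46539. The list's median was −0.58 against control female 1 alone and −1.67 against control female 2 alone.

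**Figure D5:**
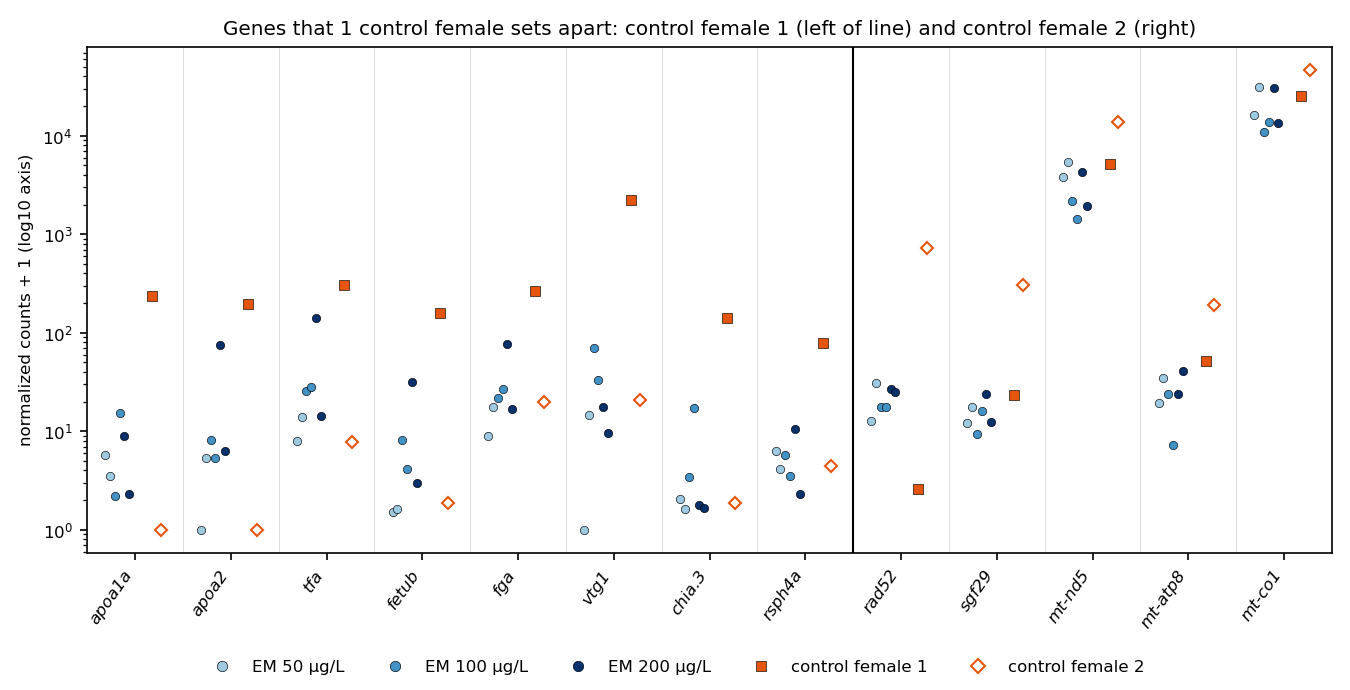
Normalized counts plus 1 on a log10 axis for genes in which 1 control female stands apart, control female 1 left of the line and control female 2 right of it; circles are the 6 EM-females by concentration, and the square and diamond are control females 1 and 2. In apoa1a, vtg1 and chia.3 the diamond sits among or below the circles, and in rad52 the circles lie between the controls.

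Above the controls, the largest differences that rested on 1 fish had that fish low. *polr3b*, a subunit of RNA polymerase III, had 181 to 358 normalized counts in EM-females, 37.5 in control female 1 and 144 in control female 2, and *hspa14*, a ribosome-bound Hsp70, had 73.2 to 108 against 19.1 and 62.9. *cyp2ad3* had 126 to 149 against 35.1 and 110.5. In *fut9b.5*, a fucosyltransferase, and *rnpep*, an aminopeptidase, the low fish was control female 2, with 229.8 to 333 against 196 and 65.4 and 97.6 to 199.9 against 89.3 and 35.7. All 5 genes were above both controls in every EM-female, but against the nearer control the log2 fold change was 0.61 in *polr3b*, 0.46 in *hspa14*, 0.29 in *cyp2ad3*, 0.46 in *fut9b.5* and 0.47 in *rnpep*.

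The effect of EM in ovaries was set against that in testes, with the interaction of EM and sex fitted over all 16 libraries. Of 22106 genes, 0 had an adjusted p under 0.05 with edgeR (0.0%), 1680 had an unadjusted p under 0.05 (7.6%), and DESeq2 called 111. The smallest adjusted p among all genes was 0.144, for *si:cabz01069013.3*, whose log2 fold change was 0.44 in testes. *smpd4* followed among the genes named here (interaction −2.50, standard error 0.44, adjusted p = 0.207, edgeR), with a log2 fold change of 0.32 in testes. For *mmp2* the interaction was 3.86 (adjusted p = 0.245, edgeR), with 142 to 539 normalized counts in EM-males against 1297 and 544 in control males. *cnot1* varied widely between testes, with 90.9 and 1784 in control males and 360 to 1919 in EM-males. So did *tdg.2*, with 136 and 1130 in control males and 179 to 1051 in EM-males. The control males differed from each other in other tissue. Pancreas and gut marker genes held 2.02% of counted reads in control male 1, 0.38% in control male 2 and 0.032 to 1.2% in EM-males. The part of this in the testis values was not tested. The median log2 fold change of the matrix genes was 0.02 in testes, against 0.57 in ovaries, and that of the steroid synthesis genes was −0.19, against 0.22; these differences between lists were not tested.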

How the data were processed

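Gonad RNA from single fish was sequenced as stranded poly(A)+ libraries. The authors deposited HTSeq read counts per Ensembl gene (HISAT2 mapping to GRCz11, duplicates removed), and a normalized signal table, whose values matched those counts over each library's DESeq2 size factor within 5.57e-08%. The 5 HTSeq tally lines were left out of tests. Reads mapped to more than 1 place were 33.5 to 36.1% of all tallied reads in EM-females and 35.7 to 36.7% in control females. In the raw table, 1 cell held 2 values and was split.

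Counts of the 8 females were tested with edgeR 4.0.16 (R 4.3.3): filterByExpr, TMM factors, robust quasi-likelihood F test (two-sided), Benjamini-Hochberg adjustment over 15907 genes. Standard errors are the absolute log2 fold change over the root of F. DESeq2 1.42.0 was an alternative. The floor of a library was 3 counts. Symbols came from the study's tables and the reference table of gene names (29270 of 32520 genes), and 5270 genes that share a symbol are called by their identifier. In lists, 1 gene had to match each symbol.

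Genes named are those at an adjusted p under 0.05; in each direction the 10 of smallest p and the 6 of largest fold whose groups do not overlap and which do not rest on 1 control female; the 5 of largest fold that do rest on 1; list members at an unadjusted p under 0.05; and list examples, all but list members with a mean of at least 20 normalized counts. Family members and genes said to be chosen later were added after their values were seen. The members and lists were chosen with earlier results of these data known, so that the shares of list members that passed are descriptions and not tests. The intervals of ratios are exact conditional binomial intervals.

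On simulated data for EM-females against control females, over 15907 genes with 200 changed by 1 on the log2 scale, edgeR recovered 1 gene (0 false calls) and DESeq2 recovered 65 (74 false calls). With 200 changed by 2, edgeR recovered 78 (2 false calls) and DESeq2 recovered 121 (73 false calls). The alternatives were DESeq2, its size factors in edgeR, every gene with at least 1 count, a fit to all 16 libraries, separate groups for the 3 concentrations, a replicate block, each fish left out, and shares of 0.25 and 0.75 for the rule on 1 control female.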

Additional observations from a re-analysis of the deposited data

Results flagged for a closer look

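Among the genes named, 18 had 1 EM-female far from the other 5 by Dixon's gap test. The test flags about 1 in 20 groups by chance where values are normally distributed. Several flagged genes were near 0 in most fish, so that this rate need not hold for them, and the 18 were not set against it. EM-female 1 at 200 µg/L was highest in the liver genes *apoa2* (73.5 normalized counts, other EM-females 0 to 7.19), *fabp10a* (88.5, others 0 to 27.6), *fetub* (30.8, others 0.529 to 7.19), *fga* (75.8, others 7.93 to 26.1) and *tfa* (141, others 6.88 to 27.4). EM-female 2 at 100 µg/L was highest in *chia.1* (13.7, others 0 to 1.86), *chia.3* (16.2, others 0.619 to 2.40), *daam1a* (1084, others 868 to 934), *mmp14a* (38.5, others 19.8 to 21.0), *ms4a17a.9* (44.1, others 0 to 2.64) and *polr3b* (358, others 181 to 230.1), and lowest in *grip2a* (464, others 566 to 598). EM-female 1 at 50 µg/L was highest in *isg20* (70.3, others 1.58 to 3.59) and *sco1* (30.1, others 2.37 to 11.8). EM-female 2 at 50 µg/L was highest in *lama5* (51.4, others 24.6 to 29.8) and *mcm4* (4470.4, others 4059.9 to 4196). EM-female 2 at 200 µg/L was highest in *cldnd* (11140.0, others 9392 to 10020.0) and lowest in *st13* (1290.3, others 1533 to 1648). The same fish thus carried the high value in 5 liver genes, and in 6 genes of other kinds another fish did.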

How the results depend on the processing

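The counts of called genes depended on the method and on single controls. At an adjusted p under 0.05, DESeq2 called 277 genes higher and 121 lower. A model of all 16 libraries and the model with each concentration as its own group each called 1 higher gene, *si:cabz01069013.3*. DESeq2's size factors in edgeR called 1 lower gene (*smpd4*), the replicate block 1 (*gpc1b*), and the test of every gene with at least 1 count 4. Leaving out 1 fish gave 0 to 10 higher and 0 to 8 lower genes. The highest counts, 10 and 8, came without control female 1, 0 and 0 without control female 2, and 2 lower genes without EM-female 2 at 200 µg/L. At an unadjusted p under 0.05 the higher genes numbered 795 to 1114 and the lower genes 488 to 837 with 1 fish left out, and the model of all 16 libraries gave 470 higher genes, of which 319 were among the 1078. Without control female 1, 470 of the 1078 higher and 314 of the 789 lower genes still passed, and without control female 2, 460 and 364.

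The number of genes resting on 1 control female was 0 higher and 62 lower with a share of 0.25, and 338 and 350 with a share of 0.75. The interaction with sex gave 111 genes with DESeq2 and 0 with the replicate block. Fish of the same number in different groups did not deviate together (correlations −0.03 to 0.02), so that the numbers do not pair them.

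With 1 fish left out, the log2 fold change turned positive only without control female 1 in *apoa1a* (−5.46 to 6.04), *apobb.1* (−4.94 to 1.12), *apoa1b* (−3.78 to 8.05), *apoa2* (−4.53 to 7.58), *tfa* (−3.21 to 2.41), *chia.1* (−6.12 to 5.13), *chia.3* (−5.88 to 1.95), *fetub* (−4.89 to 2.93), *fga* (−3.30 to 0.49), *rsph4a* (−4.15 to 0.32) and *vtg1* (−6.60 to 0.21), and only without control female 2 in *rad52* (−5.17 to 3.62). The median of the liver marker genes ranged from −2.89 to 1.61 in the same way. Where a control held 0 reads the fitted value is no measure of size. Genes within the spread between fish changed sign more freely: *fabp10a* (−1.44 to 3.20, and 0.21 with the replicate block), *casp3a* (−0.29 to 0.25), *top2a* (−0.044 to 0.027), *pcna* (−0.074 to 0.014), *cyp17a1* (−0.14 to 0.056), *lhcgr* (−0.13 to 1.26), *nasp* (−0.34 to 4.33) and *orc1* (−0.043 to 5.55). In the model of all 16 libraries and with each concentration as its own group, *nasp* had −0.41 and −0.42 and *orc1* −0.31 and −0.33. The medians of the matrix genes, the mitochondrial mRNAs, the ribosomal protein genes and the histones kept their sign under all alternatives, and no scaling moved the median of all genes by over 0.1.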

Other observations

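The following families were chosen after the data were seen, and counts above and below the controls are at an unadjusted p under 0.05. Over all tested genes, 6.78% were above and 4.96% below. Of 79 genes of cytosolic ribosomal proteins, 0 were above the controls and 22 below (27.8%, against 4.96% of all tested genes), 2 of which rested on 1 control female, and the median log2 fold change was −0.23, −0.33 against control female 1 alone and −0.11 against control female 2 alone. *rpl23* had 3852 to 5164 normalized counts in EM-females against 6698 and 6426, and *rps25* 2258 to 3676 against 4588 and 4315. Both were among the 17 of the 79 genes that lay below both controls in every EM-female (21.5%, against 6.06% of all tested genes). Of 30 histone genes, 0 were above and 7 below (23.3%), with a median of −0.36, among them *h3f3a* (2825 to 3120.0 against 3233 and 3572) and *h2bk1* (703 to 926 against 1069.5 and 975). Splicing factors gave 3 above (8.33%) and 10 below (27.8%) of 36. *srsf5a* lay above both controls (419 to 577 against 281 and 269) and *srsf2a* below both (1735 to 2049.5 against 2507 and 2574).

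Of 81 kinesin, myosin and dynein genes, 8 were above the controls (9.88%, against 6.78% of all tested genes) and 1 below (1.23%), and 72 did not pass. Their median log2 fold change was 0.14, with 49 positive and 32 negative. *myo5ab*, a myosin that carries vesicles, had 1333 to 2054 in EM-females against 948 and 911, *myo6a* 688 to 1027 against 488 and 549.7, *kif1b* 339 to 514 against 206 and 233, and *dync1h1*, the heavy chain of cytoplasmic dynein, 512 to 901 against 405 and 338. The mRNAs of ribosomal proteins and histones are short and those of these motor proteins are long. The part of transcript length or RNA integrity in the values of these families was not tested, as it was not for the leading genes. Aminoacyl-tRNA synthetases gave 6 above (31.6%) and 2 below (10.5%) of 19. *vars* (1515 to 1795 against 1225 and 1153) and *sars* (1375 to 1743 against 1086 and 1069.7) lay above both controls, and *wars*, the enzyme for tryptophan, below both (106 to 150.3 against 288 and 254). Proteasome subunits gave 9 above (20%) and 1 below (2.22%) of 45. *psmb5* had 103 to 441 in EM-females against 0.797 and 46.7, and *psmd5* 193 to 259 against 164 and 143. The nuclear genes of the respiratory chain were split, with 9 above (9.09%) and 11 below (11.1%) of 99, for example *atp5fa1* (9826 to 11185 against 8771 and 8276) and *ndufa3* (223 to 355 against 418 and 399).

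Among the 59 list members above the controls, EM-female 2 at 100 µg/L was the highest of the EM-females in 24, and the lowest in 3. EM-female 1 at the same concentration was the lowest in 15 and the highest in 11. It was not alone in this, since EM-female 2 at the top concentration was also the lowest in 15. These counts were not set against those over all tested genes.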
